A study of Caenorhabditis elegans with 6 samples.

Results

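The glutathione S-transferase genes of Caenorhabditis elegans were examined in whole animals of 3 strains, each kept with and without octopamine. The members were taken by name: every gene of the gst, gstk and gsto families to which the platform annotation assigned a probe set of its own. That gave 45 of 17118 named genes, carried by 46 probe sets. The gene gst-40 had several probe sets, of which the brightest on average was taken. A further probe set was assigned jointly to gst-10 and F56A4.3 and was left out. The genes gst-25, gst-34, gst-35 and gst-37, which the gene table of assembly WBcel235 also lists, were not analysed here.

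Glutathione S-transferases join the tripeptide glutathione to reactive and often fat-soluble compounds, which are then exported or broken down, and several also bind such compounds without changing them. In nematodes the family is greatly expanded. Together with other phase II enzymes, several members are switched on by the transcription factor SKN-1, the worm counterpart of NRF, under oxidative and electrophilic stress. The gene gst-4 is the most widely used reporter of SKN-1 activity. Small separate classes are the omega (gsto) and kappa (gstk) transferases, and the zeta class, to which gst-42 belongs and which acts in tyrosine breakdown.

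The tested strains were a daf-16(mu86) mutant, which lacks the FOXO transcription factor DAF-16, and the double mutant ser-3(ok2007);ser-6(tm2146), which carries deletions in 2 octopamine receptor genes and is named the receptor mutant below. Both are on the N2 background and were set against wild-type N2. Octopamine is the invertebrate counterpart of noradrenaline. Synchronized animals grew for 3 days and then spent 2 days on plates with octopamine at 20 mg/mL or on plates without it. The extraction protocol gives an age of 5 days and the age field day 4 of adulthood. The 6 groups were daf-16 with and without octopamine, the receptor mutant with and without octopamine, and N2 with and without octopamine, and each was 1 single-colour Affymetrix array of total RNA. The series title names octopamine, oxidative stress resistance and DAF-16 as its subject.

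Signals below are the deposited linear intensities after each array was scaled to a common median. They depend on the probes as well as on the transcript, so levels are compared between arrays and not between genes. Array medians as deposited ran from 23.77 to 25.96, and correlations between arrays over genes from 0.963 to 0.994. Precision is limited by having 1 array a group, and a ratio between a pair of arrays has no test. Only an additive model over all 6 arrays, with terms for strain and octopamine, gave a test (limma with Benjamini-Hochberg adjustment over 10251 genes, threshold 0.05). Its error joins a gene's own spread of the octopamine change between the 3 strains with a trend over all genes. With 2 residual and 6.28 prior degrees of freedom, the trend has the larger weight. A change seen mainly in 1 strain thus counts only in part as error and can still be called. With 1 strain left out fewer residual degrees of freedom remain, so those p-values rest mainly on the trend. The words rose and fell are kept for genes past that threshold. The labels name 1 replicate in each group, so the p-values rest on the spread between these 6 arrays alone, part of which may be technical.

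Markers of intestine (8 of 10), hypodermis (8 of 8), body wall muscle (6 of 7), germline (7 of 7), sperm (3 of 5), embryo (4 of 7) and neurons (6 of 6) passed the filter on dim genes. These shares are of all listed markers. Only 8 of the 10 intestine markers and 6 of the 7 embryo markers were measured, so every measured intestine marker passed. The daf-16 strain was lower on all 4 daf-16 probe sets, by log2 ratios between -2.78 and -0.37. The ser-3 probe set was dim, with signals of 17.04 and 18.06 on the receptor mutant arrays with and without octopamine, against 25.37 and 23.41 on the N2 arrays. The annotation assigned none to ser-6. The sources used here do not say which of these probe sets fall within the deletions.

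Of the 45 glutathione S-transferase genes, 31 passed the filter, a mean signal of 15.5. The other 14 stayed between 5.12 and 17.3 on every array: gst-2, gst-3, gst-9, gst-11, gst-14, gst-17, gst-19, gst-21, gst-23, gst-31, gst-32, gst-40, gst-41 and the omega-class gene gsto-1. Their octopamine ratios ran from -0.37 to 0.66 on the log2 scale and were not tested. Among the members past the filter, 5 had a probe set whose suffix marks probes shared with other transcripts: gst-16, gst-20, gst-27, gst-33 and gstk-2. In a family of close paralogues the signal of such a probe set may not be that of the named gene alone.

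With octopamine, members were called in both directions, and 24 of 31 were not called. By the additive model 4 of 31 members rose (12.9%), namely gst-5, gst-20, gst-7 and gst-39. In the same model 3 of 31 fell (9.68%), namely gst-27, gst-26 and gst-28. Of all genes tested, 7.37% rose and 14.7% fell, so with median-centred values neither count of members lay far from the background. The split depended on array scaling: 6 rose and 2 fell with the values as deposited, and 6 rose and 1 fell after quantile normalization. Of all genes tested, 9.33% rose and 9.79% fell as deposited, and 9.48% rose and 8.55% fell after quantile normalization. Fewer cells of a type and less RNA per cell cannot be told apart in these whole-animal samples.

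The gene gst-5 had the largest estimate among those that rose. Its signals were 292.5 in daf-16, 310.9 in the receptor mutant and 341.8 in N2 with octopamine, against 145.6, 256.7 and 169.4 in the same strains untreated. All 3 octopamine arrays lay above all 3 untreated arrays. The same arrays gave the estimates, so such separation, here and below, adds no further support. Its share over all genes is not given here. The log2 ratio was 1.01 in daf-16 and 1.01 in N2, and 0.28 in the receptor mutant, whose untreated array was the highest of the untreated ones. The additive estimate was 0.77 ± 0.15 (log2, SE, adjusted p = 0.0100 by limma), higher in 3 of 3 strains. GST-5 is known to conjugate the lipid peroxidation product 4-hydroxynonenal.

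The gene gst-20 rose as well. Its signals were 112.0 in daf-16, 130.4 in the receptor mutant and 129.9 in N2 with octopamine, against 74.95, 92.02 and 70.8 untreated. The groups did not overlap, and the log2 ratios were 0.58, 0.50 and 0.88 in that order of strains. The estimate was 0.65 ± 0.12 (log2, SE, adjusted p = 0.00736 by limma), higher in 3 of 3 strains. Its probe set is a shared one.

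The smaller rises were those of gst-7 and gst-39. For gst-7 the signals were 852.0 in daf-16, 847.3 in the receptor mutant and 972.6 in N2 with octopamine, against 733.7, 633.3 and 802.0 untreated. All octopamine arrays lay above all untreated ones, and the estimate was 0.30 ± 0.08 (log2, SE, adjusted p = 0.0262 by limma), higher in 3 of 3 strains. For gst-39 the signals were 125.2 in daf-16, 146.3 in the receptor mutant and 157.4 in N2 with octopamine, against 106.9, 114.2 and 118.5 untreated. Here too the groups did not overlap, and the estimate was 0.33 ± 0.10 (log2, SE, adjusted p = 0.0480 by limma), higher in 3 of 3 strains. Neither call held in every subset of strains: for gst-7 the adjusted p was 0.0995 without N2 and 0.0511 without daf-16. For gst-39 it was 0.232 without N2, 0.118 without daf-16 and 0.0574 without the receptor mutant (limma).

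**Figure D1:**
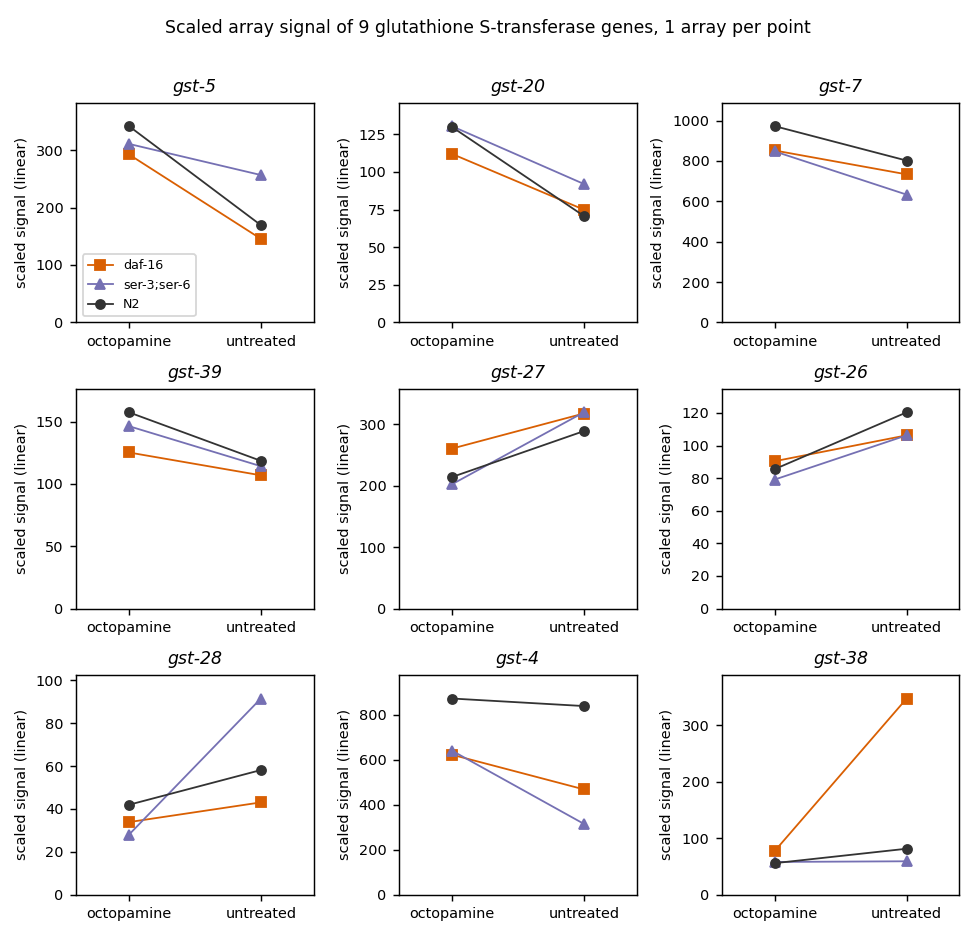
Scaled linear signal (y axis, from 0) of 9 glutathione S-transferase genes, with the octopamine array left of the untreated array of the same strain and 1 array per point. In gst-5, gst-20, gst-7 and gst-39 the 3 octopamine arrays lie above the 3 untreated ones, in gst-27, gst-26 and gst-28 below them, and in gst-38 the untreated daf-16 array stands alone at 347.4. The genes with separate groups were called on these same arrays, so the separation is no further support.

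The genes that fell, gst-26, gst-27 and gst-28, are direct neighbours on the chromosome. Signals of gst-27 were 260.2 in daf-16, 202.1 in the receptor mutant and 213.9 in N2 with octopamine, against 317.3, 319.2 and 288.6 untreated. The estimate was -0.46 ± 0.10 (log2, SE, adjusted p = 0.0153 by limma), lower in 3 of 3 strains, from a shared probe set. Without N2 the adjusted p was 0.0588, and after quantile normalization 0.0556 (limma).

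Signals of gst-26 were 90.43 in daf-16, 79.18 in the receptor mutant and 85.58 in N2 with octopamine, against 106.3, 106.3 and 120.4 untreated. The groups did not overlap, and the estimate was -0.38 ± 0.11 (log2, SE, adjusted p = 0.0381 by limma), lower in 3 of 3 strains. The adjusted p was 0.0699 with the values as deposited, 0.0811 after quantile normalization, 0.204 without N2 and 0.0671 without daf-16 (limma).

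The gene gst-28 had the largest estimate among those that fell, and the receptor mutant carried much of it. Its signals were 33.86 in daf-16, 28.02 in the receptor mutant and 41.94 in N2 with octopamine, against 43.05, 91.46 and 58.12 untreated. The untreated receptor mutant array was the highest of the 6 and the treated one the lowest, a log2 ratio of -1.71, compared with -0.35 in daf-16 and -0.47 in N2. The estimate was -0.84 ± 0.24 (log2, SE, adjusted p = 0.0391 by limma), lower in 3 of 3 strains. Without the receptor mutant it was -0.41 (adjusted p = 0.0388 by limma).

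Signs of tissue composition and RNA quality were read beside these calls. Of the marker lists, 4 had members called with octopamine, where 7.37% of all genes rose and 14.7% fell. Of 8 intestine markers 2 rose, the GATA factor elt-7 and the intermediate filament ifb-2, and 2 fell, the proton pump subunit vha-6 and the protease cpr-6. The summed signal of the list was lower with octopamine in each strain, at 10290 in daf-16, 9318 in the receptor mutant and 9233 in N2, against 11320, 11670 and 10200 untreated. Much of that drop was the bright gene cpr-6, at 2357, 2026 and 2367 with octopamine in that order, against 3411, 3606 and 3461 untreated. The list's median log2 ratio was 0.08 in daf-16, -0.19 in the receptor mutant and 0.11 in N2, so the markers were not lower as a set in each strain. Of 8 hypodermis markers 2 rose, elt-3 and col-12, and 2 fell, col-19 and col-140. Their sum was 6554 to 7972 with octopamine and 6211 to 8597 untreated. Of 6 neuron markers 2 rose, ric-19 and egl-3, with sums of 1577 to 1641 with octopamine and 1498 to 1550 untreated. Of 6 body wall muscle markers the myosin myo-3 rose, with sums of 2713 to 4262 with octopamine and 3062 to 3956 untreated. No germline, sperm or embryo marker was called by limma, though the germline sum was 11650 to 13010 with octopamine and 12780 to 14020 untreated, lower in each strain. The array's ubiquitin control gave a 3'/5' ratio, which reflects RNA integrity, of 5.74 to 6.23 with octopamine and 5.32 to 5.48 untreated. For the actin transcript the ranges overlapped, at 1.79 to 2.00 with octopamine and 1.69 to 2.14 untreated. They also overlapped for the Gapdh transcript, at 1.03 to 1.09 with octopamine and 0.919 to 1.24 untreated. The part of these measures in the gst changes was not tested.

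The SKN-1 reporter gst-4 lay just outside the threshold. Its signals were 623.0 in daf-16, 641.1 in the receptor mutant and 872.8 in N2 with octopamine, against 468.8, 315.6 and 839.3 untreated. Each octopamine array was above its own untreated array, but the N2 untreated array was above both mutants' treated arrays. The log2 ratio was 1.02 in the receptor mutant, 0.41 in daf-16 and 0.06 in N2. The estimate was 0.50 ± 0.16 (log2, SE, adjusted p = 0.0548 by limma), higher in 3 of 3 strains. It passed with the values as deposited (adjusted p = 0.0288 by limma) and after quantile normalization (0.0255). It also passed without N2 (adjusted p = 0.0173 by limma) or without daf-16 (0.00798). Without daf-16 the ratios left were 1.02 and 0.06, so that p-value rests mainly on the trend over all genes. Without the receptor mutant the estimate was 0.23 (adjusted p = 0.0966, limma). Whether the ratio differed between strains could not be tested with 1 array a group.

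Other members near the threshold were gst-16, gst-30 and gst-36, with adjusted p of 0.0570, 0.0599 and 0.0653 by limma. The gene gst-30 had signals of 59.57 in daf-16, 61.58 in the receptor mutant and 56.35 in N2 with octopamine, against 41.02, 55.97 and 40.85 untreated. Its groups did not overlap, and its estimate was 0.38 ± 0.12 (log2, SE, n = 3 pairs). For gst-36 the receptor mutant differed most, with 142.6 with octopamine against 222.4 untreated, compared with 201.4 against 233.8 in daf-16 and 216.0 against 243.5 in N2. The estimate for gst-16, from a shared probe set, was -0.35 ± 0.11 (log2, SE, n = 3 pairs).

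The gene gst-38 turned on 1 array. Its signal was 347.4 in untreated daf-16 animals and between 55.95 and 81.49 on the other 5 arrays. In daf-16 it was 77.57 with octopamine, a log2 ratio of -2.16, while the receptor mutant had 58.09 with and 59.27 without octopamine and N2 had 55.95 with and 81.49 without. The additive estimate of -0.91 ± 0.33 (log2, SE, adjusted p = 0.0842 by limma) did not pass. Without the daf-16 arrays it was -0.29 (adjusted p = 0.331 by limma), and without the receptor mutant -1.35 (adjusted p = 0.00833 by limma). The latter joins ratios of -2.16 in daf-16 and -0.54 in N2, so its p-value too rests mainly on the trend over all genes.

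The separate classes showed no call with octopamine. The omega-class gene gsto-3 had log2 ratios of -0.05 in daf-16, 0.41 in the receptor mutant and 0.17 in N2, and gsto-2 had 0.09, 0.30 and 0.02. Of the kappa-class genes, gstk-1 had ratios of 0.23, -0.15 and 0.10 in the same order of strains, and gstk-2 had 0.20, -0.06 and 0.18. The zeta-class gene gst-42 had -0.03, -0.21 and -0.14 in daf-16, the receptor mutant and N2. Its close relative gst-43 had -0.18, -0.31 and -0.12 in that order. Adjusted p-values of these 6 genes ran from 0.148 to 0.708 by limma.

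Among the pi-type members, gst-1 varied little and gst-10 differed in sign between strains. GST-1 is the worm relative of the human pi-class enzyme, and GST-10 conjugates 4-hydroxynonenal. The signals of gst-1 were 1256 in daf-16, 1231 in the receptor mutant and 1374 in N2 with octopamine, against 1292, 1285 and 1417 untreated. Its estimate was -0.05 ± 0.07 (log2, SE, adjusted p = 0.629 by limma), lower in 3 of 3 strains. For gst-10 the signals were 323.5 in daf-16, 348.4 in the receptor mutant and 308.4 in N2 with octopamine, against 357.7, 286.4 and 366.5 untreated. The receptor mutant was higher with octopamine and the other strains lower.

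The gene gst-24, whose product also acts on 4-hydroxynonenal, had one of the brightest probe sets. Its signals were 1545 in daf-16, 1127 in the receptor mutant and 1390 in N2 with octopamine, against 1738, 1260 and 1369 untreated. The order of the strains was the same under both treatments, with daf-16 highest and the receptor mutant lowest.

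Over the 31 members past the filter, 7 were higher with octopamine in all 3 strains (22.6%, compared with 20.0% of all genes tested) and 13 lower in all 3 (41.9%, compared with 37.6%). The other 11 had mixed signs. The median log2 ratio in daf-16 was -0.08, in the receptor mutant -0.06 and in N2 -0.05, and that of all genes tested was -0.07, -0.07 and -0.06. After quantile normalization the median of the members was 0.02, 0.00 and 0.00 in the same order. The members' medians thus lay close to those of all genes.

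Members at least 2-fold apart between a strain's arrays were few. In daf-16 these were gst-5, at 1.01, and gst-38, at -2.16, and 1.91% of all genes reached that size. In the receptor mutant they were gst-4, at 1.02, and gst-28, at -1.71, where 3.15% of all genes did. In N2 gst-5, at 1.01, was alone, where 2.65% of all genes did. Within 0.5 on the log2 scale were 26 members in daf-16 (83.9%, compared with 88.7% of all genes), 26 in the receptor mutant (83.9%, compared with 82.0%) and 27 in N2 (87.1%, compared with 86.0%).

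**Figure D2:**
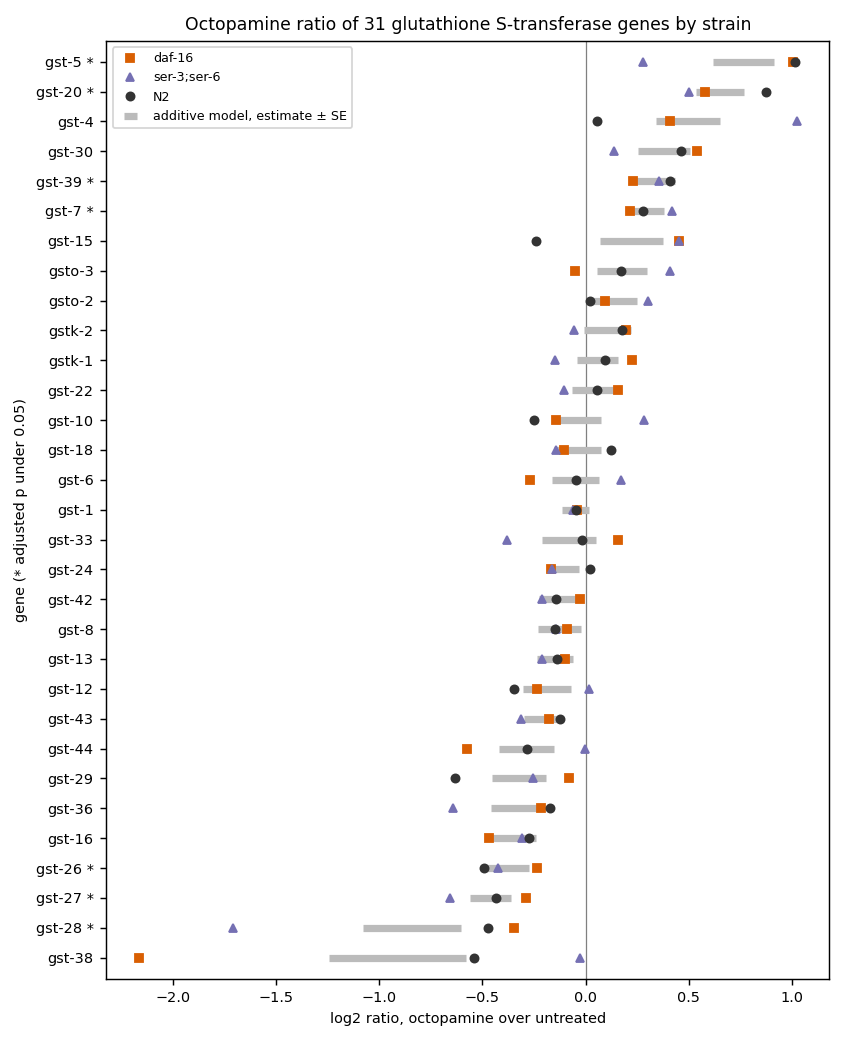
Log2 ratio of octopamine over untreated (x axis) for the 31 members past the filter (y axis), ordered by the additive estimate. Points are single strains with 1 pair of arrays each, grey bars the limma estimate ± SE, and asterisks the 7 genes with an adjusted p under 0.05; gst-38 in daf-16 and gst-28 in the receptor mutant lie farthest from the other strains.

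Many of these genes lie side by side, and neighbours did not all move together. In the gene order of WBcel235, allowing at most 3 other protein-coding genes in between, 25 of 49 listed genes fell into 4 runs, 3 of them on chromosome II and 1 on chromosome IV. In the run from gst-26 to gst-35, 5 of 9 genes passed the filter. Of these gst-26, gst-27 and gst-28 fell. The next gene, gst-29, had log2 ratios of -0.08 in daf-16, -0.26 in the receptor mutant and -0.64 in N2 and did not pass, and its neighbour gst-39 rose.

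In the run from gst-20 to gst-18, 6 of 9 genes passed the filter and only gst-20, at one end, was called. Its neighbour gst-24 had ratios of -0.17, -0.16 and 0.02 in daf-16, the receptor mutant and N2. The next one, gst-15, was dim, with 0.45, 0.45 and -0.24. In the run of gst-6, gst-7, gst-8 and gst-9, gst-7 rose, and gst-6 and gst-8 did not pass. The run on chromosome IV holds gst-4 with gst-3 and gst-2, both of which were below the filter, so no comparison with neighbours was possible there.

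**Figure D3:**
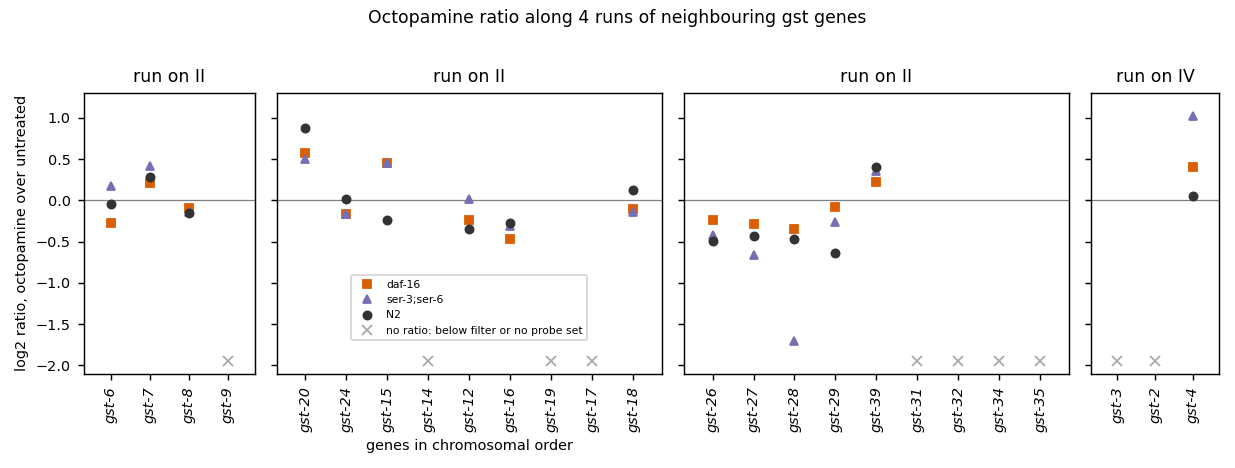
Log2 ratio of octopamine over untreated (y axis) for the genes of 4 runs of neighbouring gst genes, in chromosomal order (x axis, not to scale). Points are single strains with 1 pair of arrays each, and crosses at the bottom mark genes below the filter or with no probe set of their own; gst-26, gst-27 and gst-28 lie below 0 and gst-39 above 0 in each strain.

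The mutants were also set against N2 over both treatments in the same model. These comparisons share the N2 arrays, and each rests on 2 arrays a strain. In the daf-16 strain 0 of 31 members passed the threshold by limma in either direction, with 3 higher and 3 lower at an unadjusted p under 0.05. Of all genes tested 0.039% were higher and 0.205% lower, so few genes of any kind were called. In the receptor mutant 0 of 31 members were higher (0 at an unadjusted p under 0.05 by limma) and 2 were lower, gst-13 and gst-4 (7 at an unadjusted p under 0.05). Of all genes tested 0.4% were higher there and 2.22% lower. These shares are at the adjusted threshold. None is given for all genes at the unadjusted cut, so counts at that cut are not read as a result about the members.

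Signals of gst-13 were 168.9 with and 195.2 without octopamine in the receptor mutant, against 293.9 and 323.6 in N2. The daf-16 strain had 263.1 and 282.3. The receptor mutant was lowest under both treatments, and the estimate against N2 was -0.76 ± 0.11 (log2, SE, adjusted p = 0.0178 by limma), lower in 2 of 2 pairs. It passed under all 9 alternatives run for it.

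The gene gst-4 was lower in the receptor mutant than in N2, mostly on the untreated arrays. The log2 ratio to N2 was -0.45 with octopamine and -1.41 without, and the estimate was -0.93 ± 0.19 (SE, adjusted p = 0.0484 by limma), lower in 2 of 2 pairs. The call was lost with the values as deposited (adjusted p = 0.0501 by limma) and after quantile normalization (0.0689). In daf-16 the ratios to N2 were -0.49 with and -0.84 without octopamine. That estimate, -0.66 ± 0.19 (SE, adjusted p = 0.439 by limma), did not pass, but without the receptor mutant it did (adjusted p = 0.00828). Over the 3 strains gst-4 spanned 1.4-fold with octopamine and 2.66-fold untreated.

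Body wall muscle markers were lower in the receptor mutant as well: 3 of 6 passed the test, unc-15, tnt-2 and act-4, where 2.22% of all genes were lower. Their list's summed signal was 2713 with and 3062 without octopamine in the receptor mutant, against 4262 and 3935 in N2. Also lower were 1 of 8 hypodermis markers, col-140, and 1 of 3 sperm markers, msp-31. The hypodermis sum was 6554 with and 6211 without octopamine in the receptor mutant, against 7972 and 8072 in N2, and the sperm sum 127.3 and 152.9, against 193.8 and 212.4. No intestine, germline, embryo or neuron marker was called by limma in this comparison. The part of these in the gst-13 and gst-4 differences was not tested.

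At least 2-fold apart from N2 were gst-38, at 2.09, and gst-29, at -1.10, in untreated daf-16, where 0.39% of all genes reached that size. With octopamine no member was 2-fold apart in daf-16, where the share of all genes was also 0.39%. In the untreated receptor mutant gst-4 was the only member past that size, with 0.888% of all genes. With octopamine no member was, with 1.44% of all genes. The gene gst-29 was dim in daf-16, with signals of 11.36 with and 12 without octopamine against 16.56 and 25.71 in N2, so the size of its ratio is uncertain.

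**Figure D4:**
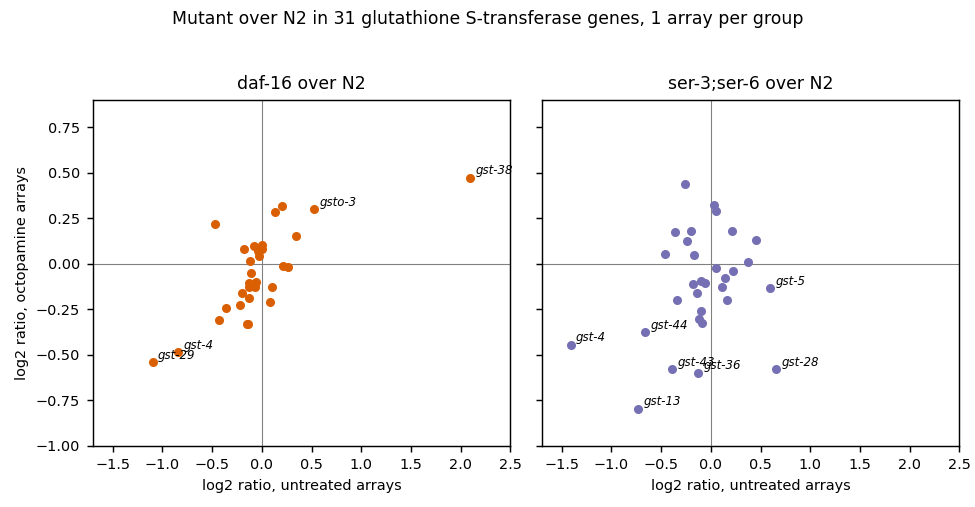
Log2 ratio of each mutant over N2 on the octopamine arrays (y axis) against the same ratio on the untreated arrays (x axis), for the 31 members past the filter, 1 point per gene and 1 array per group. Names mark genes at 0.5 or more on either axis; gst-38 in daf-16 lies at 2.09 untreated and 0.47 with octopamine, and gst-4 in the receptor mutant at -1.41 and -0.45.

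Genes that supply and use glutathione around these enzymes were read by pathway, beside the 7.37% of all genes that rose and the 14.7% that fell with octopamine. Each list is short, so a single gene moves its share by a large amount. Of 7 measured genes for glutathione synthesis, recycling and glutaredoxins 0 rose and 3 fell by limma. The rate-limiting enzyme of glutathione synthesis, gcs-1, which is also a SKN-1 target, fell by 0.40 ± 0.08 (log2, SE, adjusted p = 0.0125 by limma), lower in 3 of 3 strains. Its signals were 534.5 in daf-16, 509.3 in the receptor mutant and 500.2 in N2 with octopamine, against 706.0, 615.1 and 716.2 untreated. The glutaredoxins glrx-21 and glrx-5 also fell, by 0.56 and 0.39 on the log2 scale. Glutathione synthetase, gss-1, had ratios of -0.16 in daf-16, -0.73 in the receptor mutant and -0.12 in N2 and did not pass, and glutathione reductase, gsr-1, had -0.01, 0.20 and 0.02.

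Of 5 glutathione peroxidases past the filter, which reduce peroxides, 0 rose and 2 fell by limma: gpx-4, at -0.43, and gpx-5, at -0.48. Of 8 mrp transporters, ABC proteins that export conjugates, 1 rose and 0 fell by limma. That one was mrp-2, at 0.52 ± 0.13 (log2, SE, adjusted p = 0.0241), with ratios of 0.52 in daf-16, 0.28 in the receptor mutant and 0.75 in N2.

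Of 8 genes for SKN-1 and its regulators 1 rose and 1 fell. The TIR-domain adaptor tir-1, upstream of the p38 kinase that activates SKN-1, rose by 0.75 ± 0.08 (log2, SE, adjusted p = 9.7e-04 by limma), higher in 3 of 3 strains. The gene xrep-4 fell by 0.29 on the log2 scale. The gene skn-1 itself had ratios of 0.32 in daf-16, 0.10 in the receptor mutant and -0.41 in N2, and its repressor wdr-23 had -0.16, -0.19 and -0.04. Neither passed. Of 7 other SKN-1 targets 1 rose, the dehydrogenase gene dhs-8 at 0.59, and 2 fell, gcs-1 and ptps-1, where ptps-1 is a tetrahydrobiopterin synthesis gene, at -1.06. In the receptor mutant against N2, tir-1 was higher, at 0.64 (adjusted p = 0.0273 by limma). Of the 7 other targets ptps-1 was lower, at -0.83 (adjusted p = 0.0394 by limma). The gene skn-1, at -0.62, did not pass. Of all genes tested, 0.4% were higher and 2.22% lower there. The part of these in the gst-4 difference was not tested.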

How the data were processed

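The deposited table holds linear intensity values, 1 for each of 22625 probe sets on 6 arrays. Per the labels' protocols, RNA was extracted with TRIzol, labelled by the 3' IVT method with biotin and hybridised 1 sample to an array. How the authors summarised and scaled the probes, and the genome build, are not given in the sources used here. Left out were 77 control probe sets. Of 22548 others, 20766 were assigned to 1 gene, 887 to several and 895 to none. All 45 members matched the RefSeq gene table of WBcel235, which served for names and gene order only.

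Values were converted to log2 with no pseudocount, and each array was centred on its median, since medians as deposited spanned 0.13. The filter on dim genes was the 40th percentile of mean log2 over all probe sets. The model had terms for strain and octopamine (limma 3.58.1, R 4.3.3, empirical Bayes with a mean-variance trend) with 2 residual and 6.28 prior degrees of freedom, and was tested on simulated data. Python 3.11.15 was used for the rest.

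Named were the members called, past 2-fold, in the smaller classes or with the brightest probe sets, and gst-4. Members near the threshold (gst-16, gst-30 and gst-36) and gst-15 and gst-44 were named after their values were seen. The members and lists were chosen with earlier results of these data known. Alternatives were other scalings, filters, probe rules and strains left out.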

Additional observations from a re-analysis of the deposited data

Results flagged for a closer look

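A pair of genes past the filter had octopamine ratios of opposite sign in different strains, each at least 0.2 on the log2 scale. The difference was not tested, since each strain is 1 pair of arrays. The share of all genes that meet this rule is not given here, and 11 of 31 members had mixed signs of any size. For gst-15, dim on all arrays, the log2 ratio was 0.45 in daf-16, 0.45 in the receptor mutant and -0.24 in N2, so the mutants' ratios exceeded that of N2 by 0.69 and 0.69. For gst-10 the log2 ratio was 0.28 in the receptor mutant and -0.25 in N2, a difference of 0.53.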

How the results depend on the processing

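No gene named for a call reversed its direction under any alternative run. The strain term already pairs the arrays of each strain. By replicate number, no paired analysis was possible because every group carries the same single number. For octopamine, the count that rose was 1 without the strain term and 3 to 4 when 1 strain was left out. Of all genes tested, 1.76% rose without the strain term and 3.14% to 8.68% with 1 strain left out. The count that fell was 1 after quantile normalization, 0 without the strain term and 1 to 5 when 1 strain was left out. Of all genes tested, 8.55%, 3.25% and 7.11% to 17.2% fell in these settings. Without the strain term the difference between strains enters the error. Against N2, 2 members were lower in daf-16 without the receptor mutant, gst-29 and gst-4, where 1.13% of all genes were lower. In the receptor mutant 1 was lower, gst-13, with the values as deposited, after quantile normalization and with the stricter filter at the 60th percentile. The same held with the mean of all probe sets and without the mean-variance trend. In these settings 0.741% to 2.45% of all genes were lower. Members at least 2-fold apart numbered 1 in daf-16 with octopamine, 0 in N2 with octopamine and 1 in untreated daf-16 against N2 with a pseudocount of 16. With the stricter filter they were 1 in the receptor mutant with octopamine and 1 in untreated daf-16 against N2. Shares of all genes at 2-fold are not given for these settings. The cause of these shifts in the counts was not tested. For octopamine, the adjusted p (limma) over the alternatives ran from 0.00277 to 0.0493 for gst-20, from 1.11e-04 to 0.062 for gst-5, from 0.00909 to 0.128 for gst-7, from 0.0242 to 0.232 for gst-39, from 0.0301 to 0.204 for gst-26, from 0.00889 to 0.0647 for gst-27 and from 7.58e-05 to 0.101 for gst-28. It ran from 0.00798 to 0.344 for gst-4 and from 0.00833 to 0.335 for gst-38. Against N2, the adjusted p of gst-4 (limma) lay between 0.00828 and 0.618 for daf-16, and between 1.87e-05 and 0.0937 for the receptor mutant. Several of the lowest of these values came from fits with 1 strain left out, which rest mainly on the trend over all genes. Over all genes, 180 to 972 rose and 333 to 1765 fell with octopamine over the alternatives, compared with 755 and 1511. Against N2, 2 to 31 genes were higher and 4 to 116 lower in daf-16 (4 and 21 as reported), and 11 to 139 and 76 to 548 in the receptor mutant (41 and 228). Signals near the filter limit the ratios of several members, among them gst-8, gst-15, gst-29, gst-33, gst-44 and gsto-2.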

Other observations

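The strains differed less from each other with octopamine than without it in 19 of 31 members (61.3%), measured as the highest over the lowest of the 3 strains' signals, compared with 41.4% of all genes tested. For gst-38 the span was 1.39-fold with octopamine and 5.86-fold untreated, for gst-44 1.3-fold and 1.9-fold, and for gst-5 1.17-fold and 1.76-fold. The opposite held for the remaining members. Among them were gst-36, at 1.51-fold with octopamine and 1.09-fold untreated, and gst-27, at 1.29-fold and 1.11-fold. The median span of the members was 0.32 with octopamine and 0.38 untreated on the log2 scale, and that of all genes tested was 0.29 and 0.24. Each span rests on 1 array per strain and treatment, and no test was made.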
